A study of Mus musculus with 21 samples.

Results

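The 30 genes described here mark the fields of the mouse hippocampus, and they were taken by name from the 24411 genes of each deposited table. They comprise 13 genes of dentate granule cells, 5 of CA1, 7 of CA2 and 5 of CA3. RNA from the hippocampus of 1 hemisphere was sequenced in 21 male wild-type mice after perfusion, with strand-specific polyA libraries read at both ends, per the labels' protocols. The study asked how circulating CD8+ T cells of old age bear on the hippocampus, in a transfer experiment with young hosts and a depletion experiment with old mice. In the transfer, aged T recipients (n = 5) received CD8+ T cells of C57BL/6J donors aged 22 to 28 months, and young T recipients (n = 6) received those of donors aged 3 to 4 months. All 11 hosts were B6.SJL-Ptprca Pepcb/BoyJ mice aged 4 months, and all had a CD8a antibody on day -11 and day -7 before the cells were given by tail vein in a pair of injections. The donor cells came from spleen and blood. The depletion used mice of 22 to 24 months, whose strain the labels do not give. They were injected intraperitoneally every 4 days until killed, in the CD8a antibody group (n = 5) with that antibody and in the IgG2b group (n = 5) with a rat isotype control. The antibody was thus given to the whole animal and not to the brain alone.

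The hippocampus is built as a chain of fields. Dentate granule cells receive cortical input and send mossy fibres to CA3 pyramidal neurons, which project to CA1, while the small CA2 field between CA3 and CA1 is known for its part in social memory and for resisting plasticity at many of its inputs. Each field has genes that are transcribed much more in its principal neurons than in the neighbouring fields, so in a dissected hippocampus these genes report both how much of each field was taken and how active the genes were in it. Fewer cells of a field and less RNA per cell cannot be told apart in such bulk samples. None of the genes is exclusive to its field: Calb1 is also made by CA1 pyramidal cells and by interneurons, Prox1 by a class of interneurons, and Pcp4 by neurons of the cortex and thalamus.

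Total reads per library were 12361933 to 15055422 in aged T recipients, 11232442 to 14911138 in those of young T cells, 9957822 to 12136146 in CD8a antibody mice and 11103024 to 14375029 in IgG2b mice. Values are given as normalized counts, which are reads divided by a size factor per library and are comparable only within an experiment. A log2 difference is between group means of log2(normalized count + 1), from limma fitted on all genes whose normalized counts averaged 10 or more. All 30 genes passed that minimum in both experiments and had reads in every library, from 4 reads of Iyd to 5353 reads of Mpped1 in single libraries of the depletion, so the field markers were present in every tissue labelled hippocampus. Markers of the ventral and dorsal hippocampus stood apart between the groups of the depletion. The mean log2 level of 7 ventral genes minus that of 4 dorsal genes, none of them among the 30, was -0.52, 0.71, 0.04, 0.00 and 0.44 in CD8a antibody libraries, against 1.72, 1.31, 1.30, 0.83 and 1.57 in IgG2b libraries. The groups did not overlap in that value, and its part in the results on the depletion could not be told apart from the treatment. In the transfer it averaged 0.36 ± 0.67 in aged T recipients (SD, n = 5) and 0.38 ± 0.72 in young T recipients (SD, n = 6), with overlap. The 4 dorsal genes also mark fields, with Lct a dentate granule gene, Wfs1 and Spink8 CA1 genes and Cdh24 a CA3 gene. The ventral-minus-dorsal value is thus not independent of field levels.

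The field markers varied more between mice of a group than most genes did. The median within-group SD of log2 values was 0.39 over the 30 genes and 0.22 over all 14162 tested genes in the transfer, and 0.46 over the 30 genes and 0.26 over all 13939 tested genes in the depletion. All 30 lay above the median SD of all genes in the transfer and 28 of 30 in the depletion. Per field, the median SD in the depletion was 0.48 for the dentate genes, 0.35 for CA1, 0.58 for CA2 and 0.53 for CA3. All genes of a field were read from the same dissected tissue of each mouse, so they are not independent results.

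**Figure D1:**
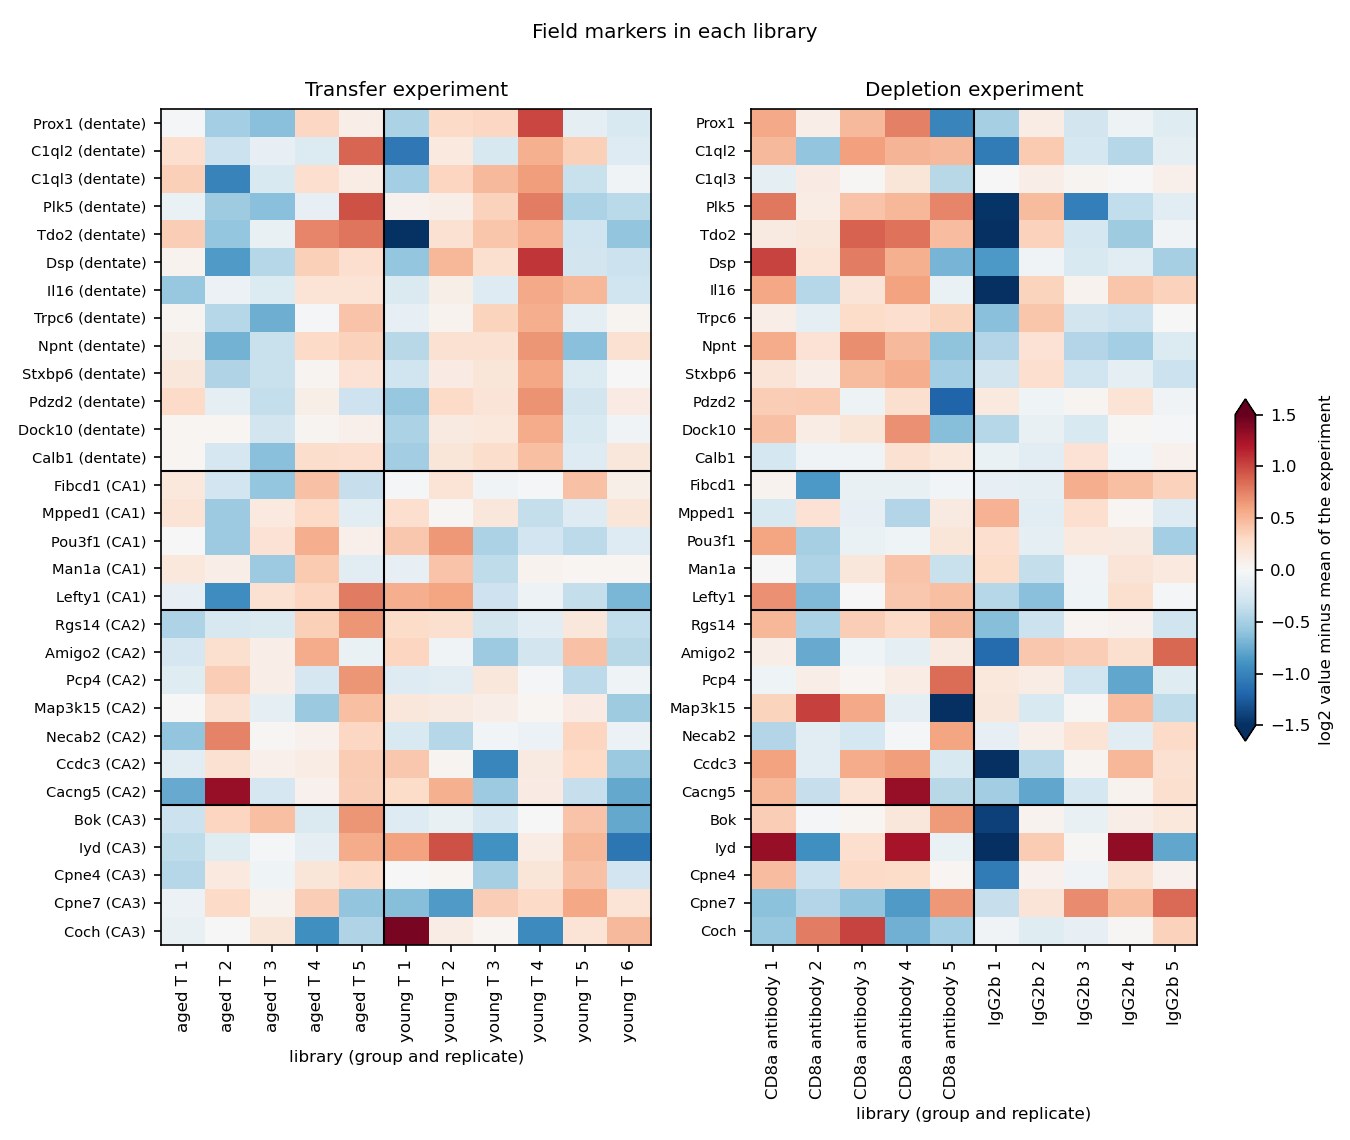
Level of each of the 30 genes in each of the 21 libraries, as log2(normalized count + 1) minus the gene's mean over its experiment, with genes down the page by field and libraries across by group. The dentate genes are low together in aged T replicates 2 and 3, young T replicate 1 and IgG2b replicate 1, and high together in young T replicate 4 and CD8a antibody replicate 4.

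In the depletion, the dentate genes lay higher in CD8a antibody mice on balance, but none of them passed the test. Of the 13 genes, 11 had a higher and 2 a lower mean log2 level than in IgG2b mice, with a median log2 difference of 0.34 and a range of -0.11 to 1.02, while the median over all tested genes was -0.00 and 49.6% of them had a difference above 0 and 50.4% below. By limma with Benjamini-Hochberg adjustment over 13939 genes, 0 of the 30 field markers were called at an adjusted p under 0.05, where 1 gene in all was called, or 0.00717% of those tested. edgeR and limma-voom on the recovered reads also called 0 of the 30, and so did DESeq2, which called 0.656% of all genes it tested. At an unadjusted p under 0.05 there were 5 dentate genes, all higher in CD8a antibody mice, and over all 30 genes 6 were higher and 2 lower, where 8.47% of all tested genes met that limit, 4.31% higher and 4.15% lower. No field marker separated the groups without overlap, which 2.05% of all genes did.

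Plk5, a member of the polo-like kinase family found mainly in brain, had the largest difference of the 30 in size. It had 269, 168, 209.7, 219 and 258 normalized counts in CD8a antibody mice, against 55.2, 217, 75.5, 119.9 and 138 in IgG2b mice. All 5 antibody mice lay above the median of the IgG2b mice, and IgG2b replicate 2 alone reached into their range. The log2 difference was 1.02 (SE 0.29, 95% interval 0.40 to 1.65), with a limma adjusted p of 0.323. Tdo2 encodes tryptophan dioxygenase, which opens the kynurenine route of tryptophan breakdown. It had 57.5, 59.1, 97.7, 92.7 and 72.5 normalized counts in CD8a antibody mice, against 12.9, 66.9, 43.4, 36.0 and 50.5 in IgG2b mice. Again IgG2b replicate 2 was the only isotype library inside the antibody range, and the log2 difference of 0.98 (SE 0.35, 95% interval 0.23 to 1.73) had a limma adjusted p of 0.444, and was 0.62 without IgG2b replicate 1. Dsp, for desmoplakin, the plaque protein that ties desmosomes to intermediate filaments, had 656, 374, 552, 469 and 199 normalized counts in CD8a antibody mice, against 179, 312, 276, 288 and 229 in IgG2b mice. Here 4 of the 5 antibody mice lay above every IgG2b mouse and replicate 5 lay among the lowest, and the log2 difference was 0.73 (SE 0.26, 95% interval 0.16 to 1.29) with a limma adjusted p of 0.452. Without CD8a antibody replicate 5 the difference of Dsp was 0.99 with a limma adjusted p of 0.0487, in a fit that called 25 genes, or 0.179% of those tested.

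The 250 bases before the annotated start of these 3 genes are given because these were the largest differences of the 30 towards higher levels in CD8a antibody mice. The sequences and coordinates are from RefSeq on GRCm38.p6, on the strand of the gene, and capitals mark a TATAAA, the core promoter word bound by the TATA-binding protein, or a CAGATG, an E-box word read by basic helix-loop-helix factors of neurons, on either strand. They lie at chr10:80356209-80356458 on the plus strand for Plk5, chr3:81975729-81975978 on the minus strand for Tdo2 and chr13:38151044-38151293 on the plus strand for Dsp. The genes themselves span chr10:80356459-80365489, chr3:81958412-81975728 and chr13:38151294-38198577.
Plk5: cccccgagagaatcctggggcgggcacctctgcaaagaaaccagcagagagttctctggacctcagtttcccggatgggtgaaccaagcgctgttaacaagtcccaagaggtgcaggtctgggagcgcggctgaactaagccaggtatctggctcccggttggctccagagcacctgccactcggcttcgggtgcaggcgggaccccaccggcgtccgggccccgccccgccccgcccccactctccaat
Tdo2: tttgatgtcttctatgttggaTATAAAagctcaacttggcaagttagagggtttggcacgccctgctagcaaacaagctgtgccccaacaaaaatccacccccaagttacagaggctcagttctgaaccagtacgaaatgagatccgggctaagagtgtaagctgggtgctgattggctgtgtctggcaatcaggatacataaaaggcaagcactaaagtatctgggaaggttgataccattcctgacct
Dsp: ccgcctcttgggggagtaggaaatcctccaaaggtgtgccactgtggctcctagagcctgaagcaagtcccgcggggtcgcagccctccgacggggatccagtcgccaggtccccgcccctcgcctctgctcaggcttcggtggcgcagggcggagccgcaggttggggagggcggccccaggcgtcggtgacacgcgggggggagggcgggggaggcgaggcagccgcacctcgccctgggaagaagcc
The windows of Plk5 and Dsp are rich in G and C, at 65.6% and 72.4% of bases, while that of Tdo2 has 46.4%, beside a median of 52% over the first listed window of each gene. Tdo2 alone of the 3 held a match, a TATAAA far upstream of its start. On either strand, TATAAA was in 13% and CAGATG in 14.5% of the 27025 promoter windows, with only the first listed window of each gene searched. Of the 24 field markers with a window, 3 held TATAAA and 4 held CAGATG, the dentate ones being Prox1 and Tdo2 for TATAAA and Prox1, Il16 and Dock10 for CAGATG. Prox1, Il16 and Dock10 have 2, 3 and 2 listed windows, and those after the first were not searched. A match is a description of the letters and not a bound site.

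C1ql2 and C1ql3 encode secreted C1q-like proteins that granule cells deliver to mossy fibre synapses. C1ql2 had 1574, 743, 1716, 1598 and 1576 normalized counts in CD8a antibody mice, against 541, 1472, 939, 832 and 1018 in IgG2b mice. All antibody libraries but replicate 2 lay above every IgG2b library, with a log2 difference of 0.60 (SE 0.26) and a limma adjusted p of 0.537. Its paralogue C1ql3 averaged 2036 ± 322 in CD8a antibody mice and 2148 ± 61.6 in IgG2b mice (SD, n = 5 each), a log2 difference of -0.09 with a 95% interval of -0.34 to 0.15. Npnt, for nephronectin, a matrix protein that binds integrins, had 364, 287, 402, 345 and 163 normalized counts in CD8a antibody mice, against 182, 287, 182, 174 and 214 in IgG2b mice. Its groups overlapped through antibody replicate 5 and IgG2b replicate 2, with a log2 difference of 0.55 (SE 0.22) and a limma adjusted p of 0.519.

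Prox1, the homeobox factor that fixes granule cell identity, had 452, 325, 425, 511 and 152 normalized counts in CD8a antibody mice, against 214, 328, 251, 288 and 266 in IgG2b mice. Replicate 5 of the antibody group was the lowest of all 10 libraries, and the other 4 lay above the IgG2b median. The log2 difference was 0.37 (SE 0.26, 95% interval -0.20 to 0.93), with a limma adjusted p of 0.732, and was 0.66 without that replicate and 0.23 without CD8a antibody replicate 4. Trpc6, a cation channel opened by diacylglycerol, averaged 232 ± 29.1 in CD8a antibody mice and 189 ± 53.9 in IgG2b mice (SD, n = 5 each), and all 5 antibody mice lay above the IgG2b median (log2 difference 0.33, limma adjusted p = 0.647; 0.21 without IgG2b replicate 1). Stxbp6, a SNARE-binding regulator of exocytosis, and Dock10 differed by 0.32 and 0.31 on the log2 scale, each with 4 of 5 antibody mice above the IgG2b median. Without CD8a antibody replicate 5 these differences were 0.49 and 0.51, and that of Dock10 was 0.18 without CD8a antibody replicate 4. Il16, whose neuronal form is a PDZ scaffold, differed by 0.34 on the log2 scale (95% interval -0.49 to 1.18). That value rested on IgG2b replicate 1, at 85.5 normalized counts against 360.4 or more in the other IgG2b mice, and became -0.12 without it. Pdzd2, a protein of many PDZ domains, and Calb1, the calcium buffer calbindin, averaged 404 ± 143 and 1898 ± 251 in CD8a antibody mice, against 408 ± 34.2 and 1889 ± 199 in IgG2b mice (SD, n = 5 each), with limma 95% intervals of the log2 difference of -0.63 to 0.41 and -0.24 to 0.24.

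**Figure D2:**
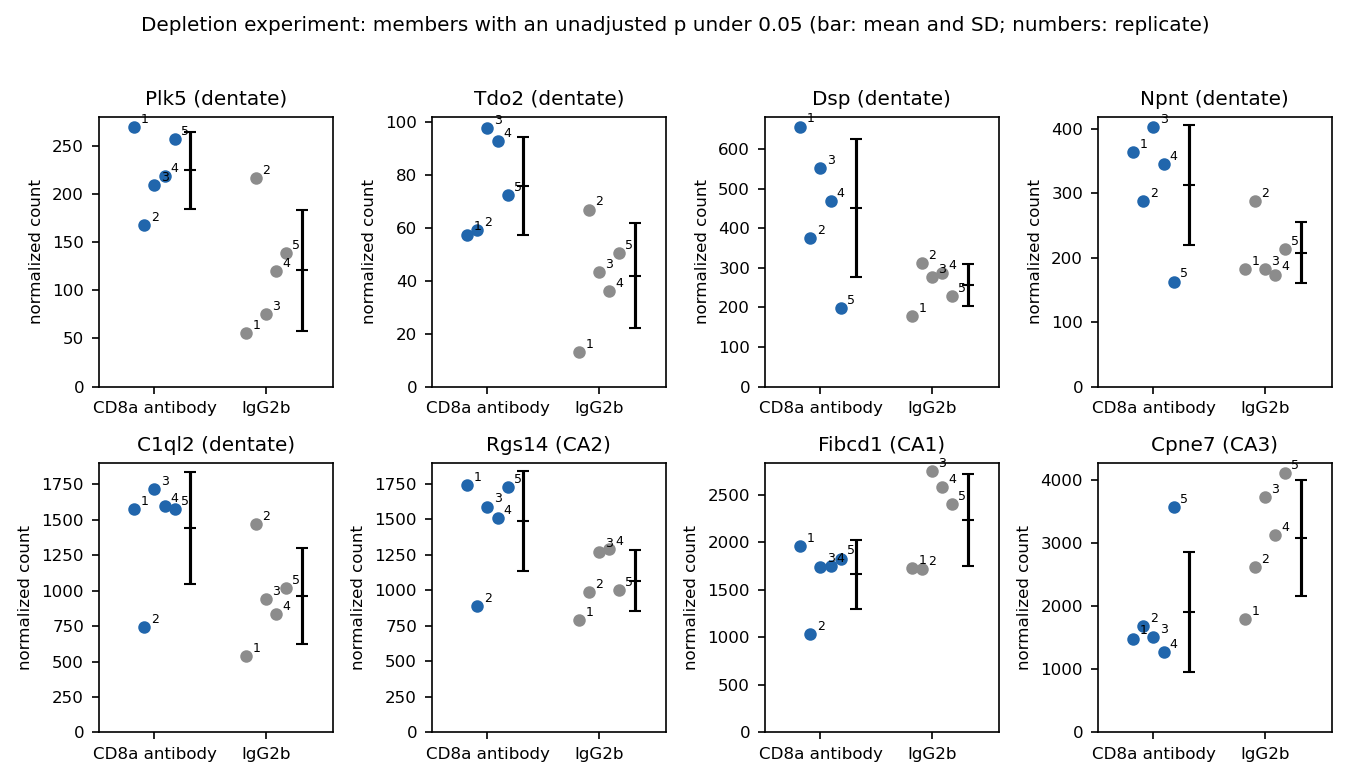
Normalized counts of the 8 genes with an unadjusted p under 0.05 in the depletion, in CD8a antibody mice (left) and IgG2b mice (right), with a numbered point per mouse and bars for the mean and SD (n = 5 each). Plk5, Tdo2, Dsp, Npnt, C1ql2 and Rgs14 have higher means and Fibcd1 and Cpne7 lower means in CD8a antibody mice, and the groups overlap in each.

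The dentate count depended on single libraries. The number of dentate genes with an unadjusted p under 0.05, 5 with all libraries, was 3 without CD8a antibody replicate 1, 3 or 4 or without IgG2b replicate 1, 3 or 4, and 7 without CD8a antibody replicate 5 or IgG2b replicate 2. The median stayed between 0.24 and 0.51 and 9 to 11 of the 13 genes stayed higher when any 1 library was left out. With the ventral-minus-dorsal value as a covariate, added after the data were seen, 5 of 13 dentate genes were higher, the median was -0.07 and none had an unadjusted p under 0.05. In that fit the log2 difference was 0.39 (SE 0.54) for Plk5, 0.53 (SE 0.68) for Tdo2 and -0.39 (SE 0.39) for Dsp. The groups do not overlap in that covariate, and it raised the median standard error of the 30 genes to 0.40, against 0.24 without it. Its dorsal genes are also markers of dentate, CA1 or CA3, so the fit partly adjusts field genes for field genes.

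In the transfer, the dentate genes lay slightly lower in aged T recipients, within the spread between mice. Of the 13 genes, 2 had a higher and 11 a lower mean log2 level than in young T recipients, with a median log2 difference of -0.15 and a range of -0.28 to 0.44, where the median over all genes was -0.00 and 49% of them had a difference above 0 and 51% below. limma called 0 of the 30 field markers and 0 of all 14162 tested genes (0%), and edgeR, limma-voom and DESeq2 called 0 of all genes as well. None of the 30 had an unadjusted p under 0.05, which 1169 of all tested genes had (8.25%, with 4.29% higher and 3.96% lower), and the smallest limma adjusted p among them was 0.638. No field marker separated the groups, which 0.699% of all genes did. The median of the dentate genes was -0.04 without young T replicate 4, the library with the highest dentate levels, and 9 of 13 genes were lower without it, as they were without aged T replicate 2 or replicate 3. The dentate median was -0.23 without young T replicate 5.

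Prox1 had 579.6, 411, 380.5, 727 and 627 normalized counts in aged T recipients, against a lowest of 421, a median of 625 and a highest of 1177 in young T recipients. Aged T replicates 2 and 3 lay below all young T recipients and the other 3 lay inside their range, and the log2 difference was -0.28 (SE 0.23, 95% interval -0.77 to 0.21; limma adjusted p = 0.727). It was -0.10 without young T replicate 4. Tdo2, the dentate gene with the largest difference, had 104, 53.5, 74.3, 134 and 141 in aged T recipients, against a lowest of 28.2, a median of 80.1 and a highest of 116 in young T recipients. Its log2 difference of 0.44 (95% interval -0.29 to 1.17; limma adjusted p = 0.708) was opposite in sign to that of most dentate genes, with aged T replicates 4 and 5 above every young T recipient, and it was 0.18 without young T replicate 1. Plk5 had 195, 144, 135, 192 and 404 in aged T recipients, against a lowest of 149.8, a median of 221 and a highest of 357 in young T recipients. All aged T recipients but replicate 5 lay below the young T median, and the log2 difference was -0.15 (95% interval -0.72 to 0.41). Dsp averaged 722 ± 229 in aged T recipients (SD, n = 5) and 877 ± 405 in young T recipients (SD, n = 6), a log2 difference of -0.23 with a limma adjusted p of 0.815 that was -0.37 without young T replicate 1 and -0.037 without young T replicate 4. C1ql2 was the other gene with a higher mean, at 997 ± 376 in aged T recipients, against 895 ± 309.6 in young T recipients, a log2 difference of 0.17 with a 95% interval of -0.38 to 0.71. The other 8 dentate genes, C1ql3, Il16, Trpc6, Npnt, Stxbp6, Pdzd2, Dock10 and Calb1, had log2 differences from -0.26 for Trpc6 to -0.03 for Dock10.

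**Figure D3:**
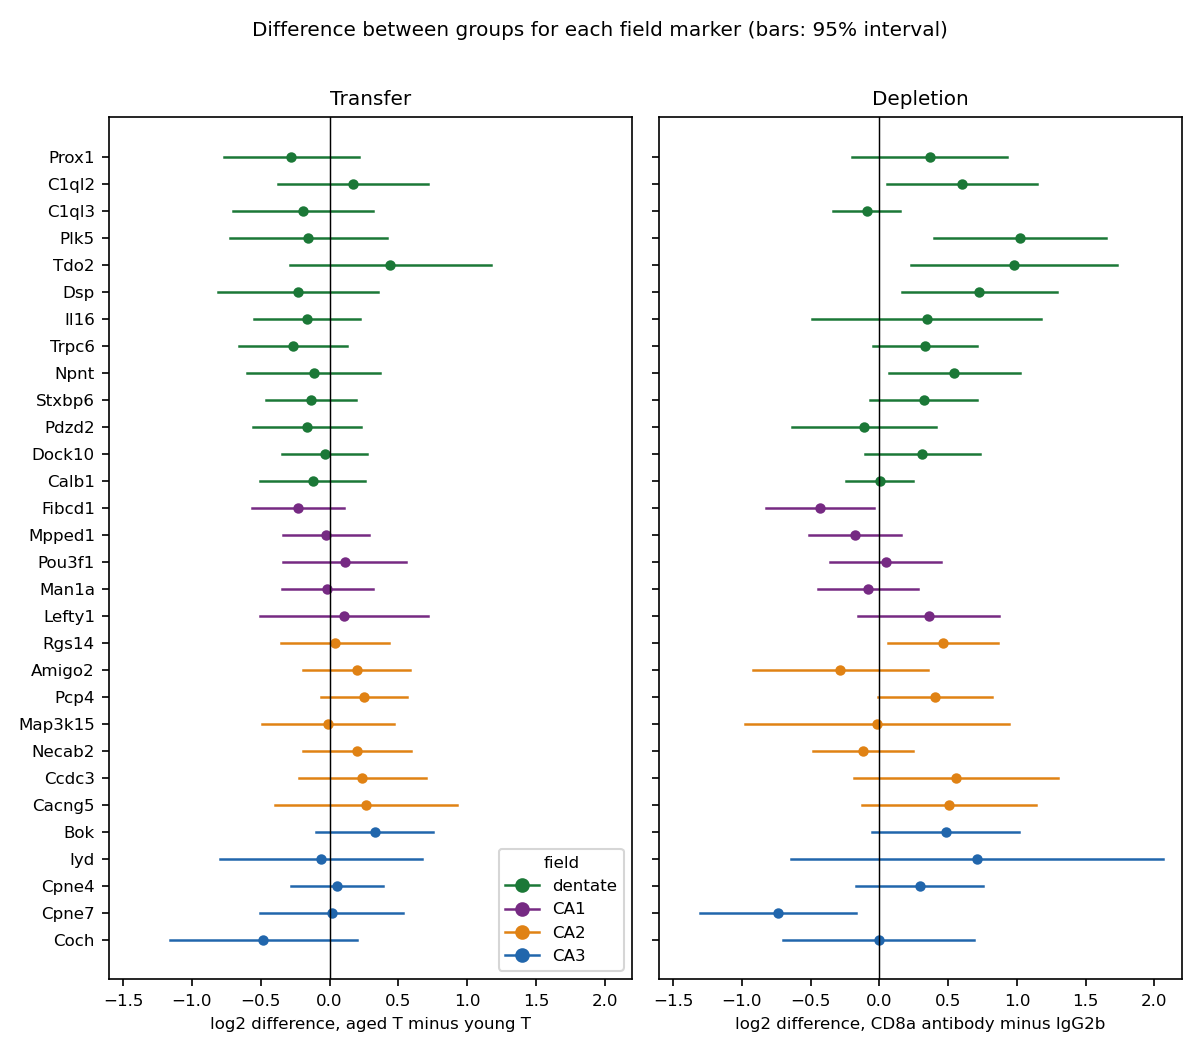
Log2 difference of each of the 30 genes, aged T minus young T recipients and CD8a antibody minus IgG2b mice, with 95% limma intervals, ordered by field. In the transfer every interval includes 0, and in the depletion 8 intervals, led by Plk5 at 1.02, exclude it before adjustment.

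The 5 CA1 genes showed no common direction. In the depletion 2 were higher and 3 lower in CD8a antibody mice, with a median log2 difference of -0.08. Fibcd1, a transmembrane receptor that binds chitin, had 1964, 1036, 1745, 1752 and 1831 normalized counts in CD8a antibody mice, against 1729, 1722, 2750.2, 2579 and 2402 in IgG2b mice. All 5 antibody mice lay below the IgG2b median, but IgG2b replicates 1 and 2 lay among them. The log2 difference was -0.43 (SE 0.18, 95% interval -0.82 to -0.04), with a limma adjusted p of 0.536, and was -0.27 without CD8a antibody replicate 2. Mpped1, a metallophosphoesterase-domain protein, Man1a, a Golgi mannosidase that trims N-glycans, and Pou3f1, a POU-domain transcription factor, differed by -0.18, -0.08 and 0.04 on the log2 scale. Lefty1, an inhibitor in the TGF-beta family, averaged 158 ± 50.3 in CD8a antibody mice and 119.7 ± 28.2 in IgG2b mice (SD, n = 5 each), a log2 difference of 0.36 with a limma adjusted p of 0.713. The CA1 median was 0.02 without CD8a antibody replicate 2, which had the lowest Fibcd1, Pou3f1, Man1a and Lefty1 levels of its group. With the ventral-minus-dorsal covariate 1 of 5 genes was higher and the median was -0.54, and Fibcd1 differed by -1.10 (SE 0.29, limma adjusted p = 0.218).

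In the transfer the CA1 median was -0.02, with 2 genes higher and 3 lower in aged T recipients. Fibcd1 had 2500.1, 1846, 1497, 3047 and 1765 normalized counts in aged T recipients, against a lowest of 2168, a median of 2298 and a highest of 3041 in young T recipients. Aged T replicates 2, 3 and 5 lay below every young T recipient and replicate 4 just above them all, so that the log2 difference of -0.23 had a 95% interval of -0.56 to 0.10 and was -0.11 without aged T replicate 3 and -0.37 without replicate 4. Mpped1 averaged 3230.3 ± 700.1 in aged T recipients (SD, n = 5) and 3256 ± 524 in young T recipients (SD, n = 6). Pou3f1, Man1a and Lefty1 differed by 0.11, -0.02 and 0.10 on the log2 scale. The sign of the CA1 median changed with the library left out, between -0.10 and 0.11.

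The 7 CA2 genes had medians above 0 in both experiments, at 0.40 in the depletion and 0.20 in the transfer, but the depletion median was -0.37, with 2 of 7 genes higher, with the ventral-minus-dorsal covariate. In the depletion 4 were higher and 3 lower in CD8a antibody mice. Rgs14, the signalling scaffold that restrains plasticity in CA2 neurons, had 1742, 886, 1588, 1505 and 1728 normalized counts in CD8a antibody mice, against 789, 986, 1272, 1289 and 1004 in IgG2b mice. All antibody mice but replicate 2 lay above every IgG2b mouse, and the log2 difference was 0.46 (SE 0.19, 95% interval 0.07 to 0.86) with a limma adjusted p of 0.512. Pcp4, a small protein that tunes calmodulin, had 1379, 1549.9, 1472, 1561 and 2584 in CD8a antibody mice, against 1611, 1555, 1171, 838 and 1271 in IgG2b mice. All 5 antibody mice lay above the IgG2b median and replicate 5 stood far above the rest, with a log2 difference of 0.40 (95% interval -0.01 to 0.82; limma adjusted p = 0.601) that was 0.25 without that replicate. With the covariate Rgs14 differed by -0.31 (SE 0.27) and Pcp4 by 1.10 (SE 0.31, limma adjusted p = 0.236).

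Amigo2, an adhesion protein, ran the other way, with 352, 194, 312, 299 and 361 normalized counts in CD8a antibody mice, against 147, 432, 423, 386 and 596 in IgG2b mice. The antibody mice lay below every IgG2b mouse except replicate 1, which was the lowest of all 10, and the log2 difference of -0.28 (limma adjusted p = 0.826) was -0.61 without IgG2b replicate 1, -0.10 without IgG2b replicate 5 and -1.02 (SE 0.54) with the covariate. Ccdc3, a secreted coiled-coil protein, and Cacng5, an auxiliary subunit of AMPA receptors, differed by 0.56 and 0.51 on the log2 scale with limma adjusted p of 0.689 and 0.677. Ccdc3 was at 47.5 in IgG2b replicate 1 and between 119 and 226 in the other IgG2b mice, and its difference was 0.19 without that library, while that of Cacng5 was 0.24 without CD8a antibody replicate 4. Necab2, a calcium-binding partner of G-protein-coupled receptors, averaged 1272 ± 390 in CD8a antibody mice and 1347 ± 183 in IgG2b mice (SD, n = 5 each). Map3k15, a MAP kinase kinase kinase, was the lowest of the 30 and had 25.2, 41.2, 29.8, 17.9 and 4.90 in CD8a antibody mice, against 22.4, 16.7, 20.0, 27.7 and 15.0 in IgG2b mice. Its 95% interval of -0.97 to 0.94 leaves a difference in either direction possible at this depth. The CA2 median was 0.19 without IgG2b replicate 1 and 0.43 without CD8a antibody replicate 2.

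In the transfer 6 CA2 genes had a higher and 1 a lower mean log2 level in aged T recipients, with none at an unadjusted p under 0.05. Pcp4 had 1367, 2009.8, 1666, 1305 and 2463 normalized counts in aged T recipients, against a lowest of 1186, a median of 1439 and a highest of 1751 in young T recipients. Aged T replicates 2 and 5 lay above every young T recipient, and the log2 difference was 0.25 (95% interval -0.06 to 0.57; limma adjusted p = 0.638), or 0.12 without replicate 5. Cacng5 had 113, 474, 159.8, 199 and 245 in aged T recipients, against a lowest of 111, a median of 179 and a highest of 277 in young T recipients. Its log2 difference of 0.27 rested on aged T replicate 2 and was -0.02 without it. Ccdc3, Amigo2, Necab2, Rgs14 and Map3k15 differed by 0.24, 0.20, 0.20, 0.04 and -0.01 on the log2 scale. Without aged T replicate 2 the CA2 median was 0.11 and the difference of Necab2 was 0.044, and without young T replicate 3 that of Ccdc3 was 0.065. Without aged T replicate 1 the CA2 median was 0.31 and Necab2 differed by 0.38. In that limma fit 2 of the 7 CA2 genes were higher at an unadjusted p under 0.05, and 0 were called.

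Among the 5 CA3 genes of the depletion, 3 were higher and 2 lower in CD8a antibody mice, with a median log2 difference of 0.29, which was -0.46 with 1 of 5 genes higher once the ventral-minus-dorsal covariate was added. Cpne7, of the copine family of calcium-dependent membrane-binding proteins, had 1489, 1690.3, 1514, 1274 and 3579 normalized counts in CD8a antibody mice, against 1794, 2617, 3737, 3125 and 4113 in IgG2b mice. All antibody mice but replicate 5 lay below every IgG2b mouse, and the log2 difference was -0.74 (SE 0.26, 95% interval -1.31 to -0.17) with a limma adjusted p of 0.444, or -0.46 (SE 0.52) with the covariate. Its paralogue Cpne4 had 1869.7, 1083, 1664, 1642 and 1393 in CD8a antibody mice, against 659, 1425, 1316, 1594 and 1423 in IgG2b mice. The groups overlapped over most of their range and IgG2b replicate 1 stood alone at the low end, with a log2 difference of 0.29 (limma adjusted p = 0.739) that was 0.067 without it. Bok, a BCL2-family protein, had 1604, 1229, 1269, 1393 and 1938 in CD8a antibody mice, against 469.6, 1285, 1145, 1328 and 1389 in IgG2b mice. IgG2b replicate 1 was again far below all others, and the log2 difference of 0.48 (limma adjusted p = 0.636) was 0.19 without it.

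Iyd, an iodotyrosine deiodinase, had 71.9, 14.5, 33.9, 68.2 and 26.5 normalized counts in CD8a antibody mice, against 3.45, 37.2, 28.7, 72.9 and 16.1 in IgG2b mice. The lowest value, in IgG2b replicate 1, came from 4 reads, and the log2 difference of 0.71 (95% interval -0.64 to 2.06) was 0.12 without that library and -2.44 (SE 0.75) with the covariate. Coch, for the matrix protein cochlin, averaged 59.5 ± 35.3 in CD8a antibody mice and 52.5 ± 8.28 in IgG2b mice (SD, n = 5 each), with a log2 difference of -0.00 and a 95% interval of -0.70 to 0.69. The CA3 median of 0.29 was 0.07 without IgG2b replicate 1, whose CA3 genes other than Cpne7 and Coch were the lowest of the experiment. It was 0.41 without CD8a antibody replicate 2.

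In the transfer 3 CA3 genes were higher and 2 lower in aged T recipients, with a median log2 difference of 0.02, while the difference in the mean over the 5 genes had the other sign, at -0.03. Bok had 1007, 1583, 1724, 1084 and 1993 normalized counts in aged T recipients, against a lowest of 739, a median of 1137 and a highest of 1703 in young T recipients. Aged T replicates 3 and 5 lay above every young T recipient, and the log2 difference was 0.33 (95% interval -0.10 to 0.75; limma adjusted p = 0.649), or 0.20 without young T replicate 6. Coch had 92.7, 99.8, 114, 52.7 and 73.4 in aged T recipients, against a lowest of 51.5, a median of 112 and a highest of 271 in young T recipients. Its log2 difference of -0.48 (95% interval -1.16 to 0.20; limma adjusted p = 0.668) was -0.24 without young T replicate 1, the library at 271. Iyd, Cpne4 and Cpne7 differed by -0.06, 0.05 and 0.02 on the log2 scale. The CA3 median lay between -0.04 and 0.13 when any 1 library was left out.

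Seen by library, the dentate genes lay largely on one side of their medians in most transfer libraries, of both groups. They were more divided in the depletion, and whether they move together was not tested. In the transfer, aged T recipients had 6, 0, 0, 8 and 11 of the 13 dentate genes above the median of the experiment, and young T recipients had 1, 12, 11, 13, 2 and 1. The libraries at either extreme belong to both groups. In the depletion the counts were 10, 8, 9, 13 and 5 in CD8a antibody mice, against 1, 10, 2, 4 and 3 in IgG2b mice. Here 4 of the 5 antibody mice had more than 6 of the 13 genes above the median, as had 1 of the 5 IgG2b mice. The genes were split in CD8a antibody replicate 2, with 8 above and 5 below, and in replicate 5, with 5 above and 8 below. The mean log2 level of the 13 genes was 8.99 ± 0.30 in CD8a antibody mice and 8.57 ± 0.33 in IgG2b mice (SD, n = 5 each), and 9.23 ± 0.35 in aged T recipients (SD, n = 5) and 9.32 ± 0.41 in young T recipients (SD, n = 6). Dentate minus CA1 was -0.77 ± 0.33 in CD8a antibody mice and -1.24 ± 0.48 in IgG2b mice (SD, n = 5 each). Dentate minus CA2 was 0.58 ± 0.15 in CD8a antibody mice and 0.38 ± 0.25 in IgG2b mice, and dentate minus CA3 was 0.42 ± 0.31 in CD8a antibody mice and 0.16 ± 0.37 in IgG2b mice. In the transfer, dentate minus CA1, CA2 and CA3 differed by -0.08, -0.27 and -0.07 between aged T and young T recipients.

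**Figure D4:**
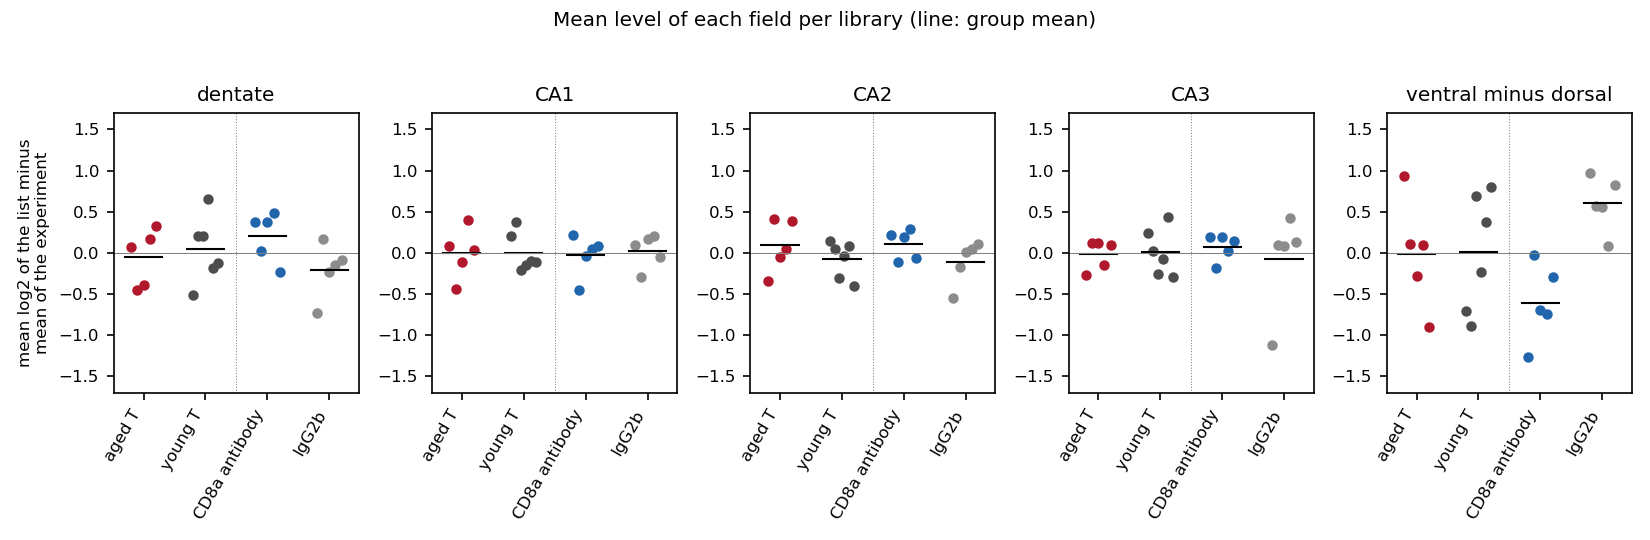
Mean log2 level of the dentate, CA1, CA2 and CA3 genes in each library, minus the mean of its experiment, and the ventral-minus-dorsal value, with a point per library. The dentate means spread from -0.73 in IgG2b replicate 1 to 0.66 in young T replicate 4, CA3 is lowest at -1.11 in IgG2b replicate 1, and the depletion groups separate in the ventral-minus-dorsal panel alone.

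Levels between genes can be compared roughly per length of exon. The length used is the union of all annotated exons of a gene, not that of the transcripts present, so the order of genes is approximate. Per kilobase, Pcp4 was the highest of the 30, with a mean of 1666 normalized counts per kilobase in CD8a antibody mice and 1256 in IgG2b mice, followed in CD8a antibody mice by Bok at 808, C1ql3 at 803, C1ql2 at 721 and Mpped1 at 715. Map3k15 was the lowest, at 5.47 in CD8a antibody mice and 4.68 in IgG2b mice. Among the dentate genes, C1ql3, C1ql2 and Calb1 stood highest per kilobase, at 803, 721 and 392 in CD8a antibody mice against 847, 480.2 and 389.9 in IgG2b mice, and Tdo2 and Pdzd2 were lowest, at 19.6 and 21.9 against 10.8 and 22.1. In the transfer the per-kilobase levels of Pcp4 were 1718 in aged T recipients, against 1412 in young T recipients, and those of C1ql3 were 896 and 1014.

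Other genes of the same cells gave a mixed picture in the depletion. Of 8 further dentate granule genes, 5 had a higher and 3 a lower mean log2 level in CD8a antibody mice, with a median log2 difference of 0.13. Lct, for lactase, which also marks dorsal hippocampus, averaged 558 ± 226 normalized counts in CD8a antibody mice and 308 ± 123 in IgG2b mice (SD, n = 5 each), a log2 difference of 0.84 with a limma adjusted p of 0.457. Rspo3, an R-spondin that strengthens Wnt signalling, averaged 152 ± 28.7 in CD8a antibody mice and 233 ± 26.4 in IgG2b mice, a log2 difference of -0.63 with a limma adjusted p of 0.252. By DESeq2 the adjusted p of Rspo3 was 0.0307. The further genes of CA1, CA2 and CA3 had medians of -0.02, 0.21 and 0.04 over 5, 3 and 7 tested genes. Hilar mossy cell genes had a median of -0.02 with 3 of 6 higher, and genes of immature granule cells had -0.41 with 1 of 5 higher. No gene of these lists was called by limma.

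Markers of neighbouring tissue and of other cell types were read beside the field genes in the depletion, and limma called none of them. All 7 ventral genes were lower in CD8a antibody mice, 6 with an unadjusted p under 0.05 and a median log2 difference of -0.82, led by Dcn, for decorin, at 350.5 ± 151 in CD8a antibody mice and 803 ± 128 in IgG2b mice (SD, n = 5 each; limma adjusted p = 0.175, DESeq2 adjusted p = 0.00185). All 4 dorsal genes were higher, with a median of 0.35. Interneuron genes were higher in 3 of 10, with a median of -0.27, and their summed normalized counts were 9330 to 13605 in CD8a antibody mice and 13276 to 15190 in IgG2b mice. Choroid plexus genes were higher in 7 of 7 and ranged widely, from 811 to 31702 summed normalized counts in CD8a antibody mice and from 1997 to 26957 in IgG2b mice. Thalamus genes were higher in 5 of 6 and neocortex genes in 2 of 7. The ventral-minus-dorsal covariate was fitted for all 30 field genes, but the groups do not overlap in it. Its part in the field results therefore could not be told apart from the treatment, and that of the other markers was not tested. No list had a gene with 0 reads throughout.

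In the transfer all 8 further dentate granule genes were lower in aged T recipients, with a median log2 difference of -0.17, and none had an unadjusted p under 0.05. The largest of these differences was that of Igfbp5, an insulin-like growth factor binding protein, which differed by -0.30 on the log2 scale with a limma adjusted p of 0.600. Further CA1, CA2 and CA3 genes had medians of 0.02, 0.03 and 0.05. Hilar mossy cell genes had a median of -0.14 with 2 of 6 higher. Of the ventral genes 3 of 7 and of the dorsal genes 2 of 4 were higher, and choroid plexus genes were higher in 7 of 7, with summed normalized counts of 2216 to 53496 in aged T recipients, against 2836 to 34081 in young T recipients. Pan-neuronal genes were higher in 0 of 6, with a median of -0.07.

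Gene length moved with the differences of both experiments. Across genes, which are not independent replicates, the log2 difference was lower for genes with longer exons in the transfer (Spearman rho -0.451 over 13656 genes) and in the depletion (rho -0.256 over 13440 genes). With that trend subtracted, the medians of the dentate, CA1, CA2 and CA3 genes were -0.10, -0.02, 0.10 and 0.05 in the transfer and 0.41, -0.03, 0.25 and 0.29 in the depletion.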

How the data were processed

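RNA-seq tables of 2 experiments were used, with 11 and 10 libraries. The submitters' processing notes name STAR, RSEM, DESeq2 and the mm10 build; the sources used here do not state the annotation or how reads were assigned to genes. Per the file headers, each library column that the authors deposited holds a normalized signal per gene, which the values show to be the count of reads after division by a library's size factor: 100% of values were whole multiples of a step at a relative tolerance of 1e-06, so read counts were recovered for the count-based tests. Besides, the authors' deposited tables list for every gene a log2 fold change, a standard error, a p-value and an adjusted p-value, and a test score; their fold change is signed the other way, IgG2b over CD8a antibody, and was not used for the tests. In the authors' deposited table Plk5 has a log2 fold change of -0.89 on that scale, with an adjusted p of 0.126. Dsp has -0.81 there, with an adjusted p of 0.115. No value column was left unused (0).

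The test was limma 3.58.1 (R 4.3.3, with an intensity trend) on log2(normalized count + 1), for genes whose normalized counts averaged 10 or more, each experiment fitted alone, with Benjamini-Hochberg adjustment over all genes tested and a threshold of 0.05. It was checked on simulated data with known changes and genes drawn independently, so the check does not cover genes that move together within a library. Alternatives were edgeR 4.0.16 (quasi-likelihood test, TMM), DESeq2 1.42.0 and limma-voom on the recovered reads, a pseudocount of 5, no minimum, each library left out in turn and, added after the data were seen, a ventral-minus-dorsal covariate in the depletion and a subtracted trend with exon length (GENCODE annotation). No test was made over a list, because the 30 genes and all other lists were chosen with earlier results of these data known. All 30 genes are named; from each other list up to 3 genes with the smallest p could be named, which for the dentate granule list of the transfer gave Igfbp5. Replicate numbers follow the order of the records and pair no mice. The labels name separate samples; no litter, cage or batch is given. Intervals are confidence intervals for the difference between group means, from limma standard errors, and reflect the mice of 1 experiment only.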

Additional observations from a re-analysis of the deposited data

Results flagged for a closer look

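In each group of 5 or 6 libraries, the highest and the lowest value of every field gene and field mean were set against the rest, and 12 stood apart by Dixon's criterion at the 95% level. In all, 68 groups were checked per experiment, and chance alone flags about 5% of groups (that is 1 in 20).

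In the transfer, Dock10 was low in aged T replicate 3, at 979 normalized counts against 1206 in the next library, and Map3k15 was low in young T replicate 6, at 24.6 against 37.0. In the depletion, CD8a antibody replicate 2 was low in C1ql2 at 743, in Fibcd1 at 1036 and in Rgs14 at 886 normalized counts, genes of 3 different fields, where the next lowest antibody libraries had 1574, 1745 and 1505. CD8a antibody replicate 5 was low in Pdzd2 at 169.5 and high in Pcp4 at 2584 and in Cpne7 at 3579 normalized counts, where the nearest antibody libraries had 372, 1561 and 1690.3. IgG2b replicate 1 was low in Il16 at 85.5, in Bok at 469.6 and in Cpne4 at 659 normalized counts, where the next IgG2b libraries had 360.4, 1145 and 1316. Its mean log2 level of the 5 CA3 genes was 7.38, against 8.58 in the next IgG2b library.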

How the results depend on the processing

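The number of field markers called was 0 in both experiments under limma, edgeR, DESeq2, limma-voom, a pseudocount of 5 and no minimum, 0 with the ventral-minus-dorsal covariate in the depletion, and 0 to 1 in the depletion when a library was left out, the 1 being Dsp at 0.99 without CD8a antibody replicate 5. With the ventral-minus-dorsal covariate, added after the data were seen, the depletion medians were -0.074 for dentate, -0.54 for CA1, -0.37 for CA2 and -0.46 for CA3. Field genes whose log2 difference changed sign with it were Prox1 -0.49, C1ql2 -0.16, Dsp -0.39, Il16 -1.15, Stxbp6 -0.074, Dock10 -0.31, Mpped1 0.29, Pou3f1 -0.58, Lefty1 -0.54, Rgs14 -0.31, Necab2 0.33, Ccdc3 -0.84, Cacng5 -0.37, Bok -0.068, Iyd -2.44, Cpne4 -0.64 and Coch 0.64. Of the other lists, only some genes with an unadjusted p under 0.05 were examined with the covariate. Among those, Fam163b at -0.31 and Vip at 0.11 changed sign. A change of sign in the remaining genes of these lists was not tested. Among the field genes, Fibcd1, Pcp4 and Amigo2 kept their sign under that covariate with larger differences, at -1.10, 1.10 and -1.02. So did Pdzd2 at -0.54, Man1a at -0.44, Map3k15 at -0.44 and Calb1 at 0.14. With the length trend subtracted, also added, the sign changed for Dock10 at 0.12, Man1a at 0.082 and Lefty1 at -0.021 in the transfer and for Pdzd2 at 0.0076 and Calb1 at -0.0078 in the depletion. Small differences changed sign with the tool: in the transfer Map3k15 was 0.011 by edgeR, 0.020 by DESeq2 and 0.011 by limma-voom, and Cpne7 was -0.041 by edgeR and -0.038 by DESeq2. In the depletion Map3k15 was 0.22 by edgeR, 0.21 by DESeq2 and 0.035 with a pseudocount of 5, and Coch was 0.19 by edgeR, 0.18 by DESeq2, 0.023 by limma-voom and 0.0063 with that pseudocount. The cause of these changes was not tested.

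Without 1 library, the log2 difference changed sign for 22 gene results. In the transfer C1ql2 ran from -0.028 to 0.29, C1ql3 from -0.31 to 0.031, Npnt from -0.25 to 0.046, Dock10 from -0.13 to 0.074, Calb1 from -0.24 to 0.017, Mpped1 from -0.10 to 0.11, Pou3f1 from -0.012 to 0.26, Man1a from -0.12 to 0.12, Lefty1 from -0.077 to 0.35, Rgs14 from -0.12 to 0.16, Map3k15 from -0.12 to 0.13, Cacng5 from -0.023 to 0.49, Iyd from -0.29 to 0.12, Cpne4 from -0.045 to 0.16 and Cpne7 from -0.15 to 0.17. In the depletion Il16 ran from -0.12 to 0.49, Pdzd2 from -0.22 to 0.18, Calb1 from -0.054 to 0.068, Pou3f1 from -0.10 to 0.18, Man1a from -0.20 to 0.021, Map3k15 from -0.27 to 0.44 and Coch from -0.26 to 0.17. Among genes that kept their sign in the depletion, Tdo2 ran from 0.62 to 1.19, Ccdc3 from 0.19 to 0.75 and Cacng5 from 0.24 to 0.67. Cpne4 ran there from 0.067 to 0.41, Bok from 0.19 to 0.58 and Iyd from 0.12 to 1.13. Among such genes in the transfer, Prox1 ran from -0.40 to -0.10, Tdo2 from 0.18 to 0.65 and Pcp4 from 0.12 to 0.35. Bok ran there from 0.20 to 0.45 and Coch from -0.71 to -0.24.

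No paired analysis was possible because the replicate numbers follow the order of the records and the labels pair no mice. With 5 or 6 mice a group, the median within-group SD of the 30 genes was 0.39 on the log2 scale in the transfer and 0.46 in the depletion. Counting error adds to the spread of low genes: Iyd, Map3k15 and Tdo2 had as few as 4, 5 and 15 reads in a library.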

Other observations

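The tables were normalized separately, so the old IgG2b mice and the young T recipients can only be set side by side as CPM (reads scaled to a common library total), with no test. Prox1 had 18.1 to 27.5 CPM (median 22.3) in IgG2b mice and 31.7 to 86.1 (median 45.0) in young T recipients, and Dsp had 15.1 to 26.2 (median 23.3) in IgG2b mice and 37.8 to 116 (median 55.6) in young T recipients. Both dentate genes were lower in every IgG2b mouse than in any young T recipient. Necab2 of CA2 was higher in every IgG2b mouse, at 95.7 to 131 CPM (median 114), against 57.2 to 95.6 (median 73.6) in young T recipients. Over the 13864 genes tested in both experiments, 8.75% separated these groups without overlap, 5.01% lower and 3.74% higher in IgG2b mice, so 3 of 30 is near the share of all genes. The other 27 genes overlapped, among them 11 dentate, 5 CA1, 6 CA2 and 5 CA3 genes. Age, strain label, pretreatment with the CD8a antibody, transferred cells and experiment all differ together between these groups and cannot be told apart. The ventral-minus-dorsal value ran from 0.83 to 1.72 in IgG2b mice and from -0.52 to 1.17 in young T recipients, with overlap. Its part in this comparison was not tested.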
